A study of Mus musculus with 4 samples.

Results

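The myosin light chains and their kinases are 9 of the 55401 genes in the deposited counts, taken by symbol and not by any measured value. They are Myl1, Myl2, Myl3, Myl4, Myl6, Myl6b, Mylpf, Mylk2 and Mylk4. All 9 had enough counts to be tested, as did 13533 genes in all. Poly(A) RNA had been sequenced from semimembranosus muscle, a hamstring of the thigh, taken from 8-week-old mice of the C57BL/6 strain. The IVS_diosmin group (2 libraries) had a narrowed left external iliac vein, made by tying the vein over a 30-gauge needle, and received diosmin, a flavonoid drug for venous disease, through a stomach tube at 40 mg per kg per day. The IVS group (iliac vein stenosis, 2 libraries) had the same operation and was given saline by the same route. Both groups carried the stenosis, so no level can be set against unoperated muscle. The labels do not say whether each library came from 1 animal, which leg was sampled or how long treatment lasted, so the p-values speak only of the variation among these 4 samples, part or all of which may be technical.

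Each myosin head of a muscle fibre carries a pair of light chains on its lever arm, an essential (alkali) light chain and a regulatory one. Fast fibres use the essential chain of Myl1 and the regulatory chain of Mylpf, while slow type I fibres and the heart ventricle use Myl3 and Myl2. The regulatory chain is phosphorylated by myosin light chain kinase, an enzyme switched on by calcium and calmodulin, and in fast skeletal muscle this raises the force of a twitch.

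Gene counts summed to between 13056650 and 15324354 per library. The muscle markers Ckm and Acta1 were among the abundant transcripts in every library. Of 6 cardiac genes listed, Mybpc3 and Nppb had no count in any library, and all 6 summed to between 2.97 and 17.0 CPM (counts scaled to library size). Some libraries stood apart. The 5 Schwann cell genes summed to 71.2 and 126 CPM with diosmin and to 41.7 and 278 CPM in IVS, highest in IVS replicate 2. The rRNA locus CT010467.1, named after its values were seen, took 1.16% and 0.936% of gene counts with diosmin and 4.14% and 3.80% in IVS. Of 3 tested genes listed as signs of RNA quality 2 fell, Lars2 (log2 fold change -1.81, edgeR adjusted p = 0.00148) and Rn7sk (-1.94, adjusted p = 0.0063), and the 3 summed to 963 and 789 CPM with diosmin and to 2481 and 2237 CPM in IVS. Of 6 general skeletal muscle genes 2 rose, Des, the muscle intermediate filament protein (0.88, edgeR adjusted p = 0.0365), and Mb, the oxygen-binding myoglobin (1.16, edgeR adjusted p = 0.0460). A call in that direction was made for 1.17% of all genes tested. Of the 6, 5 were higher with diosmin without overlap, against 23.4% of all genes tested. The part of these differences in the levels of the 9 genes was not tested. Over all genes tested, 400 passed the test, 159 of them higher and 241 lower in the diosmin libraries (115 and 337 with library totals in place of TMM scaling). Leaving out IVS replicate 2 gave 98 calls, leaving out diosmin replicate 1 gave 38, and leaving out diosmin replicate 2 gave 266. Among 6 macrophage, 4 erythrocyte and 3 adipocyte genes tested, edgeR called 0. Of them 0, 3 and 1 had an unadjusted p under 0.05, against 16.8% of all genes, and DESeq2 called 0, 1 and 1. All 4 erythrocyte genes tested had a log2 fold change above 0. The 5 listed summed to 19.5 and 35.7 CPM with diosmin and to 3.95 and 18.0 CPM in IVS.

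With diosmin 1 of the 9 genes rose, Myl3, the essential light chain of slow fibres, and none fell (edgeR quasi-likelihood test, adjusted p under 0.05, a call made for 2.96% of all genes tested, 1.17% higher and 1.78% lower). At an unadjusted p under 0.05 edgeR gave 5 of the 9, of which Myl6 was the lower one, against 16.8% of all genes. DESeq2 called the same 5, Myl2, Myl3, Myl6b and Mylk4 higher and Myl6 lower, against 5.76% of the genes it adjusted. With no low-count filter edgeR called 4 of the 9, against 4.09% of all genes. The values of the groups did not overlap for those 5 genes, 4 higher and 1 lower with diosmin, against 47.5% of all genes tested (23.4% higher and 24.1% lower), so that the count of separated genes stood near the background. The median log2 fold change of the 9 was 0.02, and that of all genes was 0.0064. With 1 library left out at a time, the log2 fold change of Myl3 was 4.70 to 5.98. Such a fit cannot measure the spread of the group left with 1 library.

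Myl3 (chromosome 9, 110741861 to 110769798, plus strand, mm10) was counted 1854 and 841 times in IVS_diosmin replicates 1 and 2, against 36 and 30 times in IVS replicates 1 and 2. Scaled to library size, these were 143 and 58.4 CPM with diosmin and 2.06 and 2.44 CPM in IVS. The groups were separated by a wide gap, the lower diosmin library standing 24.0 times above the higher IVS library. The log2 fold change was 5.49 ± 0.49 (SE, 95% interval 4.33 to 6.65, edgeR adjusted p = 0.00389). Diosmin replicate 1 stood 2.45 times above replicate 2, and without replicate 1 the log2 fold change was 4.70. That fit holds 1 diosmin library, so it cannot measure the spread between diosmin libraries. Of its exon bases, 95 of 2044 lie opposite exons of Pth1r, which had at most 10 counts in any library.

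The stretch before the annotated start of Myl3, the family member that rose, is set beside that of Mylpf, the most abundant fast-fibre member per length. Both are bases 250 to 33 before the RefSeq start on the plus strand of GRCm38.p6, inside the annotated gene span, and hold no GENCODE exon. The Myl3 window is chr9:110763428-110763645 and the Mylpf window is chr7:127211358-127211575. Capitals mark matches, on either strand, to the CArG box, the binding motif of serum response factor, or to the MCAT motif CATTCC, the binding motif of TEAD factors.
Myl3: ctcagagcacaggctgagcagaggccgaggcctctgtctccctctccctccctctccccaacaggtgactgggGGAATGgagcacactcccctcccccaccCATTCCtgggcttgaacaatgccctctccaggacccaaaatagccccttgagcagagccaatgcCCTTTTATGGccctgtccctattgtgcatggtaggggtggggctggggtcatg
Mylpf: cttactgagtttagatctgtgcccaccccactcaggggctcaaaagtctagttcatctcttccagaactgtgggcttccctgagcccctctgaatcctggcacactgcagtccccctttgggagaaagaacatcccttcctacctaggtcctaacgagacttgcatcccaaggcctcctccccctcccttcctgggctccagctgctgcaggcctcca

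The Myl3 window holds 1 CArG box and 2 MCAT matches, none of which overlap, and the Mylpf window holds neither. A CArG box is present in 1.29% of the 32851 promoter windows of this length in the RefSeq table, and MCAT in 11.4%. A match to the MEF2 site, present in 2.59% of windows, was found in neither printed window. Among the windows scanned, the matches did not follow the direction of the differences. Neither RefSeq window of Myl2, the other slow chain, holds any of the 3 motifs. Their RefSeq starts, 122092724 and 122093189, lie before the GENCODE span of Myl2, which begins at 122100951. The stretch directly before that span was therefore not scanned. Of the other windows, 1 of those of Myl6 holds a CArG box, that of Myl1 holds 1 MCAT match and that of Mylk4 holds 1 MEF2 site. Of the 9 genes 8 matched the table, and Mylk2 did not. These matches describe letters and were not tested for binding.

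Myl2 (chromosome 5, 122100951 to 122113472), the regulatory light chain of slow fibres and the ventricle, was at 716 and 231 CPM with diosmin, against 14.9 and 7.07 CPM in IVS. Both diosmin libraries lay above both IVS libraries, the nearest pair 15.5 times apart, and replicate 1 was the higher library in each group. Its log2 fold change of 5.42 was about as large as that of Myl3, but the edgeR adjusted p was 0.0599. The standard error was 0.80 on 4.25 degrees of freedom, against 0.49 on 7.19 for Myl3. The log2 fold change was 4.38 without diosmin replicate 1 and 6.06 without IVS replicate 1. With all libraries kept, the adjusted p was 2.2e-07 with DESeq2, and in edgeR 0.0455 with RLE scaling and 0.00271 with the replicate block. In edgeR it was 0.118 with library totals and 0.198 with no low-count filter. Per kb of exon, Myl2 was 5.25 and 4.14 times the level of Myl3 with diosmin, and 7.57 and 3.04 times in IVS. The IVS libraries bracketed the diosmin libraries in this ratio.

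Myl1 (chromosome 1, 66924295 to 66945404), the essential light chain of fast fibres, was at 11028 and 11253 CPM with diosmin and at 9728 and 12293 CPM in IVS. Mylpf (chromosome 7, 127208890 to 127214298), the regulatory chain of fast fibres, was at 7820 and 6640 CPM with diosmin and at 7205 and 8051 CPM in IVS. The groups overlapped for both genes. The log2 fold change was 0.02 ± 0.21 for Myl1 (95% interval -0.44 to 0.48, edgeR adjusted p = 0.981) and -0.08 ± 0.21 for Mylpf (95% interval -0.53 to 0.37, edgeR adjusted p = 0.903). Changes inside those intervals could not be told from none with these libraries. Of the 50-base windows in Myl1 transcripts 11.7% also occur in the pseudogene Mylf-ps, and reads from them can be lost as aligning to more than 1 place.

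Within a library, the slow chains can be set against their fast counterparts without any scaling between libraries. Myl3 made up 1.30% of the reads per kb of Myl3 and Myl1 together in IVS_diosmin replicate 1 (exact 95% binomial interval 1.24% to 1.36%) and 0.524% in replicate 2 (0.489% to 0.560%). In IVS its share was 0.0215% in replicate 1 (0.0150% to 0.0297%) and 0.0201% in replicate 2 (0.0136% to 0.0287%). The lower diosmin share was 24.4 times the higher IVS share.

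Myl2 made up 4.75% (4.65% to 4.85%) and 1.86% (1.79% to 1.92%) of the reads per kb of Myl2 and Mylpf together in IVS_diosmin replicates 1 and 2. In IVS replicates 1 and 2 it made up 0.112% (0.0990% to 0.127%) and 0.0478% (0.0383% to 0.0590%). Both shares were thus higher in each diosmin library than in each IVS library, and Mylpf still held 95.3% and 98.1% of its pair with diosmin, against 99.9% and 99.95% in IVS. The intervals cover counting error only, and with 2 libraries against 2 an exact permutation test cannot go below p = 0.333. With raw counts in place of reads per kb, the mean Myl2 share with diosmin exceeded that in IVS by 5.73 percentage points, against 3.22 points per kb.

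**Figure D1:**
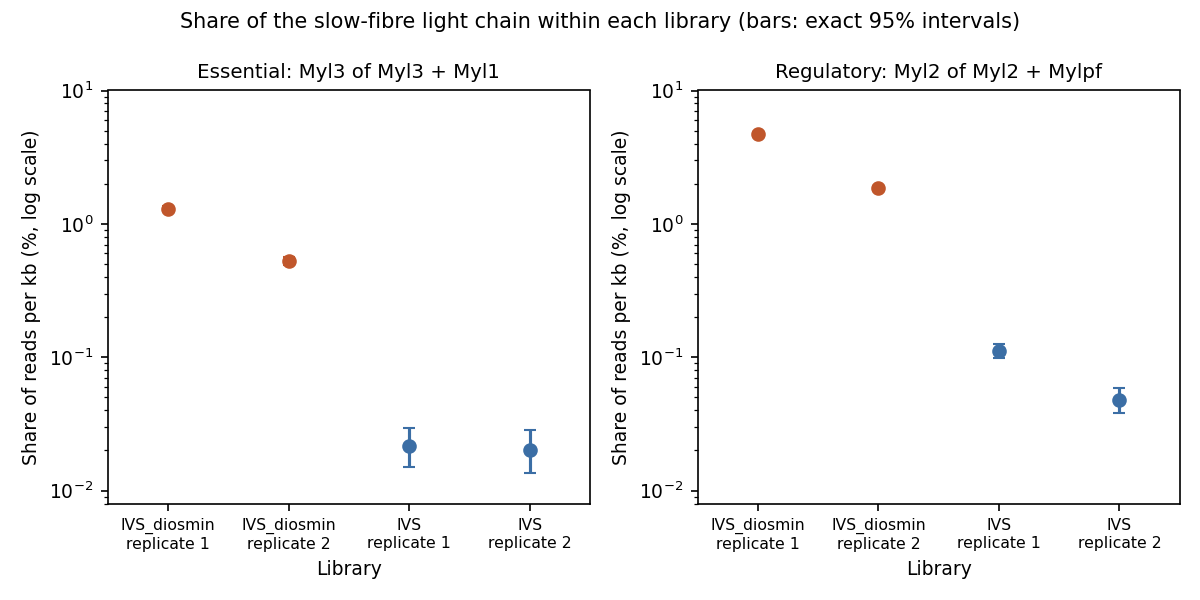
Share (%, log scale) of the slow-fibre chain in reads per kb of the slow and fast chain together, in each library, with exact 95% binomial intervals as bars. The diosmin libraries (orange) sit at 0.524% and 1.30% for Myl3 and at 1.86% and 4.75% for Myl2, above the IVS libraries (blue).

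These shares moved with the other slow-fibre genes. All 9 of a list of 9 slow-fibre genes rose with diosmin, and their summed level was 3099 and 1308 CPM in the diosmin libraries, against 76.7 and 93.1 CPM in IVS. Those of smallest adjusted p were Myh7b, an ancient slow-type myosin (log2 fold change 3.71), Tnnt1, slow troponin T (5.74), Atp2a2, the slow calcium pump (3.40), and Myh7, the slow myosin heavy chain (8.79). Of 12 fast-fibre genes 1 rose, Myh1, the type IIx myosin (1.17), and 2 fell, Casq1, the fast calsequestrin (-0.92), and Tnnc2, fast troponin C (-0.93), with a list median of -0.17. At an unadjusted p under 0.05 edgeR gave 7 of the 12, 3 of them higher, against 16.8% of all genes. DESeq2 called 1 higher and 4 lower. The groups did not overlap for 3 genes higher and 6 lower with diosmin, against 23.4% and 24.1% of all genes tested. Myh7, Myh7b, Atp2a2, Myh1, Myh2, Casq1 and Tnnc2 share exon bases with genes on the opposite strand. The extent ranged from 37 of 6634 bases in Myh7b to 592 of 800 in Tnnc2, which overlaps Ube2c. Without a known strand setting, reads from the shared bases cannot be told apart. In bulk muscle, more slow fibres in the piece sampled and more slow-type RNA per fibre cannot be told apart.

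Since Myl2 and Myl3 are also ventricular genes, the cardiac list was read beside them. Its 6 genes summed to 17.0 and 7.91 CPM with diosmin and to 2.97 and 5.69 CPM in IVS, none of the 3 tested passed in edgeR (1 at an unadjusted p under 0.05, and 1 in DESeq2), and Mybpc3 and Nppb were at 0 throughout. Most of that sum was Myh6, the atrial-type myosin heavy chain, at 15.3 and 6.04 CPM with diosmin and 1.77 and 4.55 CPM in IVS. Tnni3, cardiac troponin I, was at 0.77 and 1.74 CPM with diosmin and 0.51 and 0 CPM in IVS. The groups did not overlap for Myh6 or Tnni3, as for 23.4% of all genes tested in that direction. Myl7, the atrial regulatory chain, had no count in any library.

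Among all 13532 other genes tested, the 3 whose centred log2 levels over the 4 libraries came closest to those of Myl3 were Tnnt1, Myl2 and Tnnc1, slow and cardiac troponin C. Their root mean square differences from Myl3 were 0.21, 0.47 and 0.63 on the log2 scale. Tnnt1 was at 551 and 274 CPM with diosmin and at 6.80 and 8.69 CPM in IVS. Likeness over 4 libraries that fall in 2 groups is a description only.

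**Figure D2:**
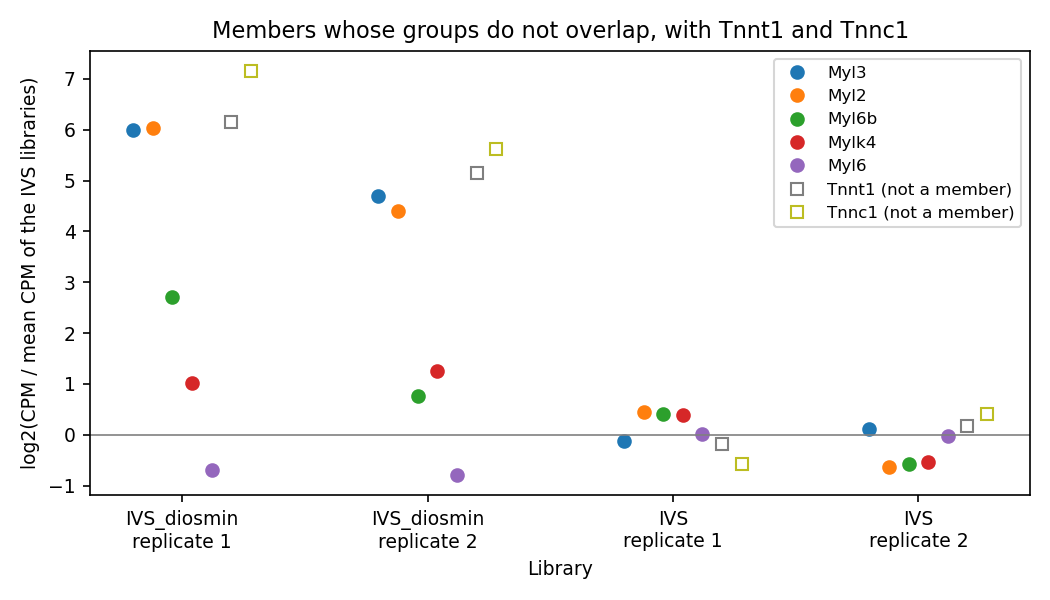
Level of each gene in each library as log2 of its CPM over its mean CPM in the IVS libraries, for the 5 family members whose groups did not overlap (filled circles) and for Tnnt1 and Tnnc1 (open squares). Myl3, Myl2, Tnnt1 and Tnnc1 lie far above 0 in both diosmin libraries and higher in replicate 1, while Mylk4 is slightly higher in replicate 2.

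Myl6b (chromosome 10, 128494157 to 128498685), an essential light chain that in humans is described from slow skeletal muscle and non-muscle cells, was at 22.1 and 5.69 CPM with diosmin, against 4.46 and 2.28 CPM in IVS. The groups did not overlap, but the nearest libraries were only 1.28 times apart, and diosmin replicate 1 was 3.89 times replicate 2. The log2 fold change of 2.02 ± 0.70 did not pass (edgeR adjusted p = 0.222). It was 0.74 without IVS_diosmin replicate 1 and 2.67 without IVS_diosmin replicate 2, so its size rested on diosmin replicate 1.

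Myl4 (chromosome 11, 104550663 to 104595753), the essential chain of embryonic muscle and of the heart atrium, was the least abundant member per kb with diosmin, at 5.01 and 3.33 CPM, against 3.20 and 6.74 CPM in IVS. The groups overlapped, and the log2 fold change of -0.24 ± 0.44 did not pass (95% interval -1.19 to 0.71, edgeR adjusted p = 0.847). Its counts of 48 to 83 per library limit what can be seen. Of 9 tested genes of developing muscle 1 rose, Actc1, the cardiac and fetal actin, at 434 and 394 CPM with diosmin and 177 and 226 CPM in IVS.

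Myl6 (chromosome 10, 128490860 to 128494145), the essential chain of smooth muscle and non-muscle myosins, lies next to Myl6b on the same strand. It was at 92.3 and 86.4 CPM with diosmin, against 152 and 147 CPM in IVS. Replicates lay close together and the groups did not overlap, yet the log2 fold change of -0.75 ± 0.20 did not pass (95% interval -1.17 to -0.32, edgeR adjusted p = 0.0645). DESeq2 (adjusted p = 0.0128) and the edgeR fit with no low-count filter (0.0204) called it. The edgeR fits with RLE scaling (0.0693), library totals (0.0536) or the replicate block (0.135) did not. With 1 library left out, the log2 fold change was -0.79 to -0.71.

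Endothelial genes were also lower with diosmin. Of 8 tested 5 fell, among them Cdh5, the adhesion protein VE-cadherin (log2 fold change -1.34, edgeR adjusted p = 0.00491), and they summed to 223 and 209 CPM with diosmin, against 430 and 446 CPM in IVS, with none at 0. The 7 smooth muscle genes summed to 149 and 152 CPM with diosmin and to 137 and 157 CPM in IVS, and 0 of the 5 tested passed in edgeR (1 at an unadjusted p under 0.05, 0 in DESeq2). Of 50-base windows in Myl6 transcripts 8.38% also occur in one of 5 pseudogenes, and reads that aligned to more than 1 place were 45.6% and 43.6% of all reads with diosmin and 37.7% and 38.8% in IVS. Their part in the level of Myl6 was not tested.

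Mylk4 (chromosome 13, 32700834 to 32783954), a member of the myosin light chain kinase family, was at 318 and 378 CPM with diosmin, against 207 and 109 CPM in IVS. The groups did not overlap, with the nearest libraries 1.54 times apart, and the IVS libraries differed more from each other than the diosmin libraries did. The log2 fold change of 1.14 ± 0.28 did not pass (95% interval 0.52 to 1.76, edgeR adjusted p = 0.0595). It was 1.67 without IVS replicate 1 and 0.75 without IVS replicate 2, the library with the high Schwann cell sum. A link between that sum and the level of Mylk4 was not tested. The count files give this gene an identifier version other than that of the annotation used for its length.

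Mylk2 (chromosome 2, 152911352 to 152923068), the skeletal muscle myosin light chain kinase that phosphorylates the fast regulatory chain, was at 1255 and 1332 CPM with diosmin and at 1333 and 1231 CPM in IVS. The groups overlapped, and the log2 fold change was 0.01 ± 0.20 (95% interval -0.42 to 0.44, edgeR adjusted p = 0.983). Per kb of exon, Mylk4 stood at 0.0973 and 0.109 times Mylk2 with diosmin, against 0.0595 and 0.0341 times in IVS. Mylk2 thus remained the more abundant of both kinases in every library.

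**Figure D3:**
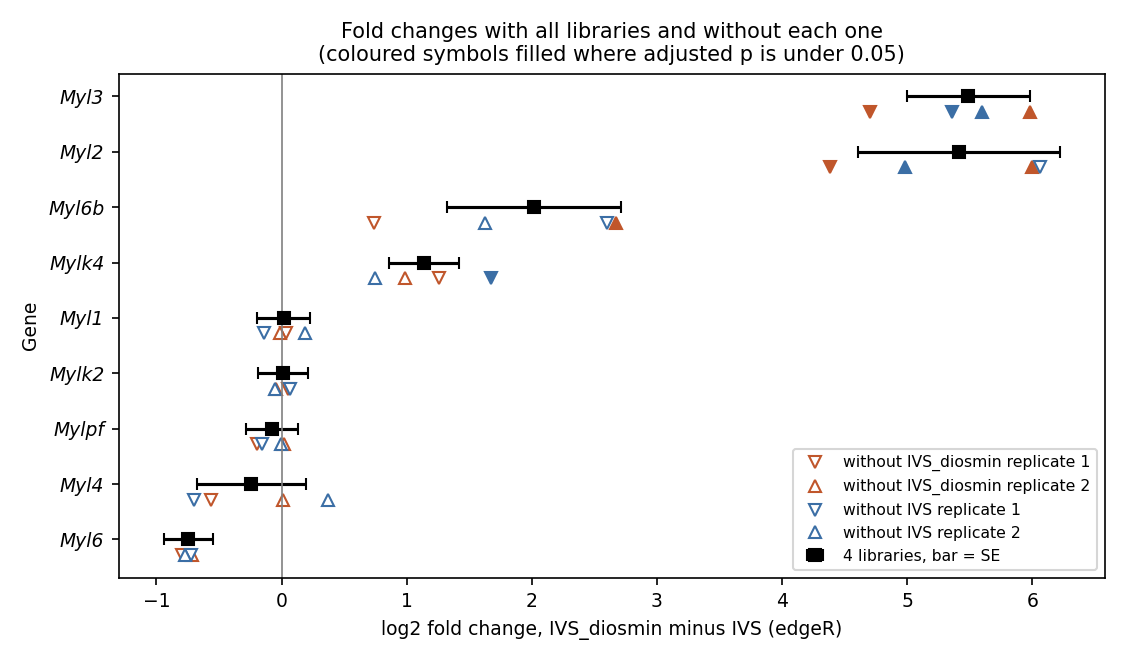
The log2 fold change of each gene, IVS_diosmin minus IVS, from edgeR with all 4 libraries (black squares, bars are SE) and without each library in turn (coloured symbols, filled where adjusted p was under 0.05). Each coloured symbol comes from a fit with 1 library in 1 group, whose spread that fit cannot measure.

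Per kb of exon, the order of levels in the diosmin libraries was Mylpf, Myl1, Mylk2, Myl2, Myl3, Mylk4, Myl6, Myl6b and Myl4. Of these neighbours, Myl3 and Mylk4 overlapped. In IVS the order was Mylpf, Myl1, Mylk2, Myl6, Mylk4, Myl2, Myl6b, Myl3 and Myl4, and Myl3 and Myl4 overlapped. The 3 most abundant genes thus kept their places, while Myl3 averaged 49.2 CPM per kb with diosmin, below Myl2, and 1.10 CPM per kb in IVS, below Myl6b. The 9 genes together held 2.14% and 2.00% of the scaled counts with diosmin and 1.86% and 2.19% in IVS.

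**Figure D4:**
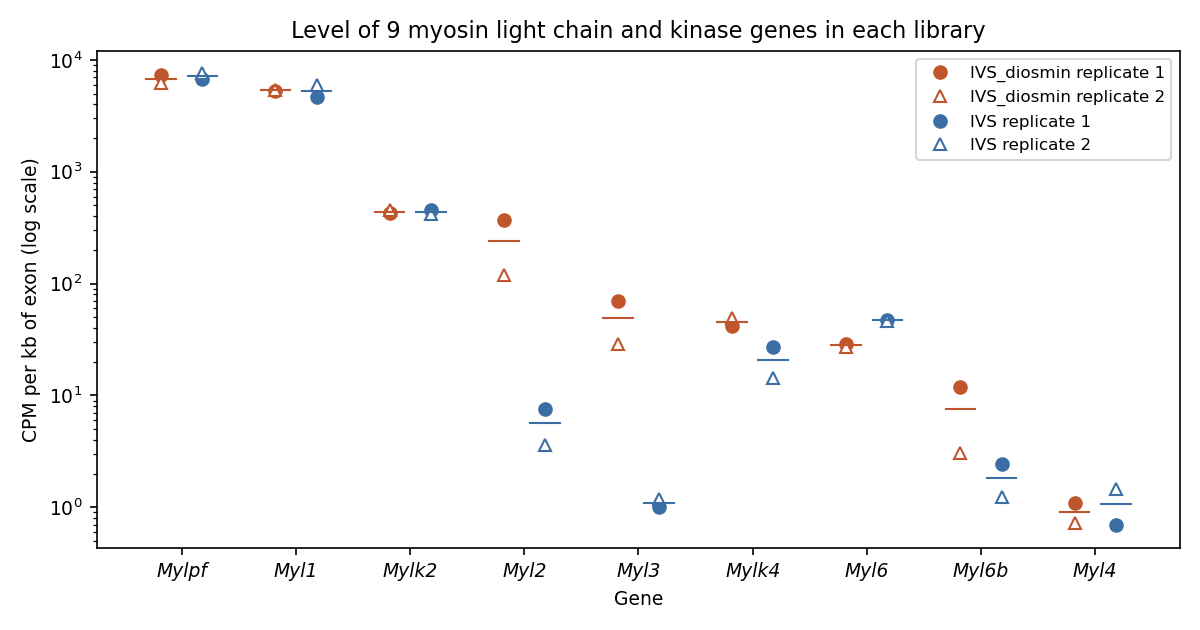
CPM per kb of exon (log scale) of the 9 genes in each library, with a line at each group's mean, IVS_diosmin in orange and IVS in blue. The groups lie apart for Myl2, Myl3, Mylk4, Myl6 and Myl6b and overlap for the other genes.

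Among the other genes of the light chain machinery edgeR made no call. Of the other light chains, 0 of 4 tested passed in edgeR, 0 had an unadjusted p under 0.05 and 0 passed in DESeq2, with a median log2 fold change of -0.09. The smallest p was that of Myl9, the smooth muscle regulatory chain, at 19.0 and 18.7 CPM with diosmin and 18.4 and 23.1 CPM in IVS (edgeR adjusted p = 0.832). Of 14 tested regulators of light chain phosphorylation (kinases, calmodulins, and subunits and inhibitors of myosin phosphatase), 0 passed in edgeR, 2 had an unadjusted p under 0.05 and 1 passed in DESeq2, with a median of -0.16. The smallest p was that of Ppp1r12b, the striated muscle targeting subunit of myosin phosphatase, at 146 and 105 CPM with diosmin and 80.7 and 70.6 CPM in IVS (log2 fold change 0.73 ± 0.22, edgeR adjusted p = 0.106).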

How the data were processed

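The authors deposited a table of raw read counts over genes for each library. Per the submitters' processing notes, HISAT2 2.1.0, HTSeq and mm10 were used. Which HTSeq version, annotation release and strand setting applied is not given in the sources used here. All 5 HTSeq summary lines, which held 72.3% to 75.1% of the reads, stayed out of library sizes and tests. Symbols, positions and exon lengths came from GENCODE M21 (mm10), where 55141 of 55401 identifiers matched without version, and promoter windows from RefSeq (GRCm38.p6). Counts were analysed with edgeR 4.0.16 (R 4.3.3): filterByExpr, TMM, robust quasi-likelihood test of IVS_diosmin minus IVS, 2-sided, Benjamini-Hochberg over all genes tested, threshold 0.05. The method was tested on simulated data, in which the variance of each gene between replicates followed the fitted trend for its level. There it called 34 of 100 genes changed by a log2 fold of 1, 94 of 100 changed by 3 and 7 of 13333 unchanged genes. Genes that vary more than that trend were not simulated. Levels are TMM-scaled CPM; per kb divides by the union of exons. No repeat library was seen (chi-square per degree of freedom between replicates 19.7 in IVS_diosmin, 28.6 in IVS). Alternatives were DESeq2 1.42.0, RLE scaling, library totals, no filter, a replicate block and leaving out each library. The genes named by rule were all 9 members; for the other light chains, the regulators and the slow-fibre and fast-fibre lists, the genes past the threshold (at most the 4 of smallest adjusted p) or else the gene of smallest p; and the 3 genes most like each called member. Genes named from other lists, and Myl7 and Myh2, were chosen after their values were seen. The members and lists were chosen with earlier results of these data known.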

Additional observations from a re-analysis of the deposited data

How the results depend on the processing

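Myl3 passed with DESeq2, RLE scaling, library totals, no low-count filter and the replicate block (adjusted p 2.4e-70 to 0.00844). Its log2 fold change was 4.70 to 5.98 over all 9 alternative fits. The number of the 9 genes called, 1 in edgeR with TMM, was 5 with DESeq2, 2 with RLE scaling, 4 with no low-count filter, 2 with the replicate block and 2 to 3 without 1 library. Over all genes, 400 calls became 613 with DESeq2, 919 with no filter, 93 with the replicate block and 38 to 366 without 1 library. The replicate numbers of the labels do not pair the libraries by the labels, and same-numbered libraries deviated from their group means with a correlation of 0.0115. Of the 14 calls gained by single genes, 6 were of Myl2, whose log2 fold change was 4.38 to 6.06 without 1 library. Signs turned in 9 of 81 fits of single genes, all of genes whose groups overlapped: Myl1 was -0.082 with library totals in place of TMM and -0.14 to 0.19 without 1 library, Mylk2 -0.11 and -0.050 to 0.069, Myl4 -0.70 to 0.37 without 1 library, and Mylpf -0.20 to 0.021 without 1 library. Library totals moved the median of all genes by -0.12. The Myl2 share differed by 5.73 percentage points with raw counts and by 1.78 to 4.67 points without 1 library, and the Myl3 share by 0.503 to 1.28 points. The causes were not tested. In a fit without 1 library, the lone library of a group was assumed to vary like the other group. Calls gained or kept in those fits therefore do not measure how firmly a gene differs. Of 14 regulators and 4 other light chains none was called by edgeR. Counts of 28 to 83 per library limit Myl4 in all libraries, and Myl3 and Myl6b in IVS.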
